A study of Mus musculus with 24 samples.

Results

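The comparison of male with female lungs that carry the c-Raf transgene rested on 12 arrays, 6 of M c-Raf and 6 of F c-Raf, out of 24 in the series. They were taken by the genotype and sex in the array titles. The mice were SP-C/c-raf transgenics, in which the surfactant protein C (SP-C) promoter directs c-Raf-1-BxB, a c-Raf-1 kinase that lacks its NH2-terminal part and is thereby oncogenically active, to the epithelium of the lung. Such mice develop adenocarcinoma after an atypical adenomatous hyperplasia, and no value of the transgene or of a sex-linked messenger RNA can be had from a miRNA array, so genotype and sex rest on the labels. The other 12 arrays came from wild type lungs, 6 of M WT and 6 of F WT, and served for the estimate of the spread and for the sex difference without the transgene. All animals were 4 to 6 months old, with 1 animal on each array. The study's methods describe microdissection from frozen lung sections, but also name RNA of each lung as the array input. Which of these was hybridised is therefore not clear. The study describes precursor lesions in the transgenic mice. The labels give the tissue as lung adenocarcinoma for all 24 arrays, the wild type ones included. Total RNA was labelled with Cy3 and hybridised to a 1-colour array that carries 611 mouse miRNAs.

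MiRNAs are short RNAs that pair through their seed, bases 2 to 8 from the 5′ end, with sites in messenger RNAs and lower their translation and stability, so that miRNAs with 1 seed share many targets. The Raf kinase passes signals from Ras to MEK and ERK, and ERK raises the transcription factor AP-1. AP-1 is known to act on the gene of miR-21, a miRNA abundant in many carcinomas that represses Pdcd4. The miR-146 pair is induced by NF-kappaB and represses its adaptors Traf6 and Irak1, miR-127 is transcribed from the imprinted Dlk1-Dio3 region, and the miR-200 family keeps epithelial cells from a mesenchymal state by repression of Zeb1 and Zeb2.

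The mature sequences of the miRNAs that the comparison turned on are given here, from RefSeq on GRCm38.p6, with the seed in capitals. Of 25 miRNAs looked up by name, 22 matched, and miR-34c, miR-30b and miR-720 did not. The first set holds the 3 miRNAs called in the comparison, together with miR-146a, which has the seed of miR-146b.
miR-146b: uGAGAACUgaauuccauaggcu
miR-146a: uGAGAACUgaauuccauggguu
miR-21: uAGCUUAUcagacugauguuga
miR-127: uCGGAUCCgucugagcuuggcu
Of the 22 bases of miR-146a and miR-146b, 20 are identical and the substitutions from miR-146a to miR-146b are G18A and U21C, counted from the 5′ end, so that the probes of the pair may share signal. The gene of miR-146b lies on chromosome 19, that of miR-146a on chromosome 11, that of miR-21 on chromosome 11 within Vmp1 and that of miR-127 on chromosome 12 within Rtl1. The second set is the miR-200 family, shown because all of its tested members had a lower mean in M c-Raf.
miR-200b: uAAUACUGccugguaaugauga
miR-429: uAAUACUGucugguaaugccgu
miR-200c: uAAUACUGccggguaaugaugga
miR-200a: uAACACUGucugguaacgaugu
miR-141: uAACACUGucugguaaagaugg
miR-200b, miR-429 and miR-200c share a seed, while miR-200a and miR-141 have another. The genes of miR-200a, miR-200b and miR-429 lie together on chromosome 4, and those of miR-200c and miR-141 on chromosome 6. The third set shows miR-497, the miRNA with the smallest p among those higher in M c-Raf, beside members of its seed group.
miR-497: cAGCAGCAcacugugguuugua
miR-195: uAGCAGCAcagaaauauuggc
miR-16: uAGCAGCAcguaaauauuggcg

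The values are log2 scaled intensities. The background-subtracted intensity of each spot was divided by the brightness of its array, which is the 75th percentile of all spots that belong to the 27 mouse miRNAs present on each of the 24 arrays, and anything under 0.01 was set to 0.01, a floor of -6.64 on the log2 scale. A value of 0 is therefore as bright as that percentile, and levels are compared within a miRNA, not between miRNAs. The arrays of replicate 1 to 6 sat on slides 1 to 6, and each group held 1 position on every slide, so that position and group cannot be told apart. The slides were read in 4 scans, numbered by date. Scan 1 held slide 4, scan 2 slides 5 and 6, scan 3 slide 1 and scan 4 slides 2 and 3. Differences by scan therefore regroup those by slide and add no further arrays. Detection means that the extraction software flagged the miRNA as present on that array.

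Brightness ran from 34.9 intensity units (replicate 6) to 1212 (replicate 4) in M c-Raf and from 86.9 (replicate 5) to 358.9 (replicate 4) in F c-Raf. Its mean was 8.35 ± 1.82 on the log2 scale in M c-Raf against 7.65 ± 0.73 in F c-Raf (SD, n = 6 each). The difference of 0.70 did not pass an exact two-sided permutation test over the 924 ways to divide the arrays (p = 0.398), and M c-Raf was brighter on 5 of 6 slides. Without M c-Raf replicate 6, the dimmest array, the difference was 1.34 (exact permutation p = 0.0368), and without any other single array it had a p from 0.348 to 0.684. The number of mouse miRNAs detected ran from 38 to 179 in M c-Raf (median 112) and from 54 to 139 in F c-Raf (median 91). The means differed by 14.3 (exact permutation p = 0.576; over these 2 tests the adjusted p was 0.576 for each), and without M c-Raf replicate 4, the brightest array, by -0.2. Of the wild type arrays, F WT replicate 5 stood apart, with miR-127 at -3.15 and miR-146b at -5.12 where the other F WT arrays lay at the floor. M WT replicate 4, the dimmest wild type array at 52.8 intensity units, stood apart as well. It had miR-21 at -6.54 where the other M WT arrays lay from -4.60 to -3.72. Its miR-200b was at -5.62 where they lay from -3.04 to -2.60.

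**Figure D1:**
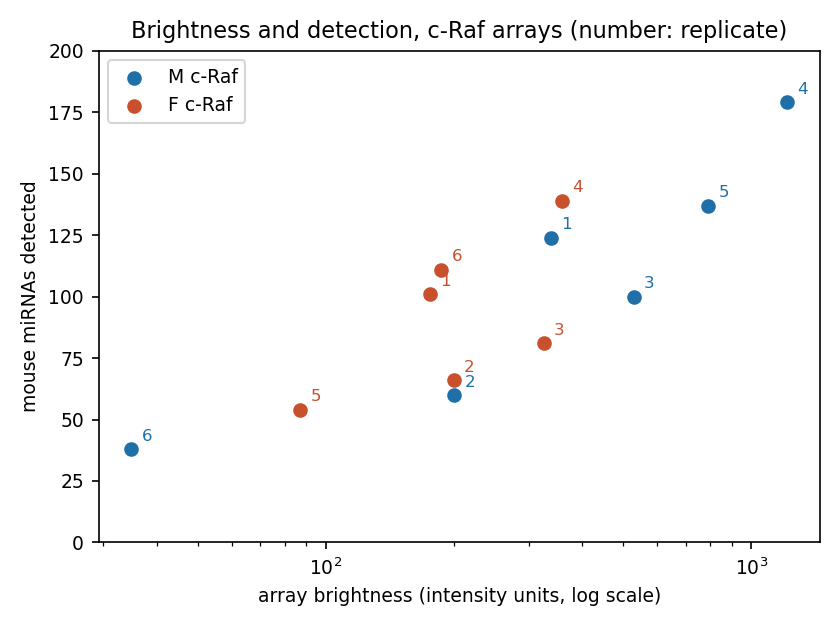
Number of mouse miRNAs detected (vertical axis) against array brightness in intensity units (horizontal axis, log scale) for the 12 c-Raf arrays, 1 point per array, with the replicate number beside it. The dimmest array, M c-Raf replicate 6, detected 38 miRNAs and the brightest, M c-Raf replicate 4, detected 179.

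To find miRNAs that differ between the sexes in transgenic lungs, M c-Raf was compared with F c-Raf over the 120 mouse miRNAs that at least 6 of the 24 arrays had detected. Lower in M c-Raf were miR-146b, miR-21 and miR-127, by 1.60 to 1.88 on the log2 scale, and no miRNA was called higher. These 3 were all the calls of limma at an adjusted p under 0.05, which is 2.5% of the miRNAs tested. At an unadjusted p under 0.05 there were 10 miRNAs (8.33%), 8 lower and 2 higher in M c-Raf. Over all 120 the median difference was -0.05, and 68 miRNAs (56.7%) lay below 0, 51 above and 1 at 0. The arrays of the sexes did not overlap for 5 miRNAs (4.17%), all lower in M c-Raf, namely the 3 called ones with miR-200a and miR-429. On 6 of 6 slides 6 miRNAs were lower in M c-Raf, these 5 and miR-652, and 3 were higher, miR-497, miR-720 and miR-324-5p (0.20, adjusted p = 0.952). Replicates are separate animals, and the p-values measure the spread between the arrays of separate animals. For miR-146b and miR-127 the floor, at which most WT arrays lay, also sets that spread. With a floor of 0.001 in place of 0.01 their SE was 0.72 and 0.84 (limma adjusted p = 0.685 and 0.937).

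**Figure D2:**
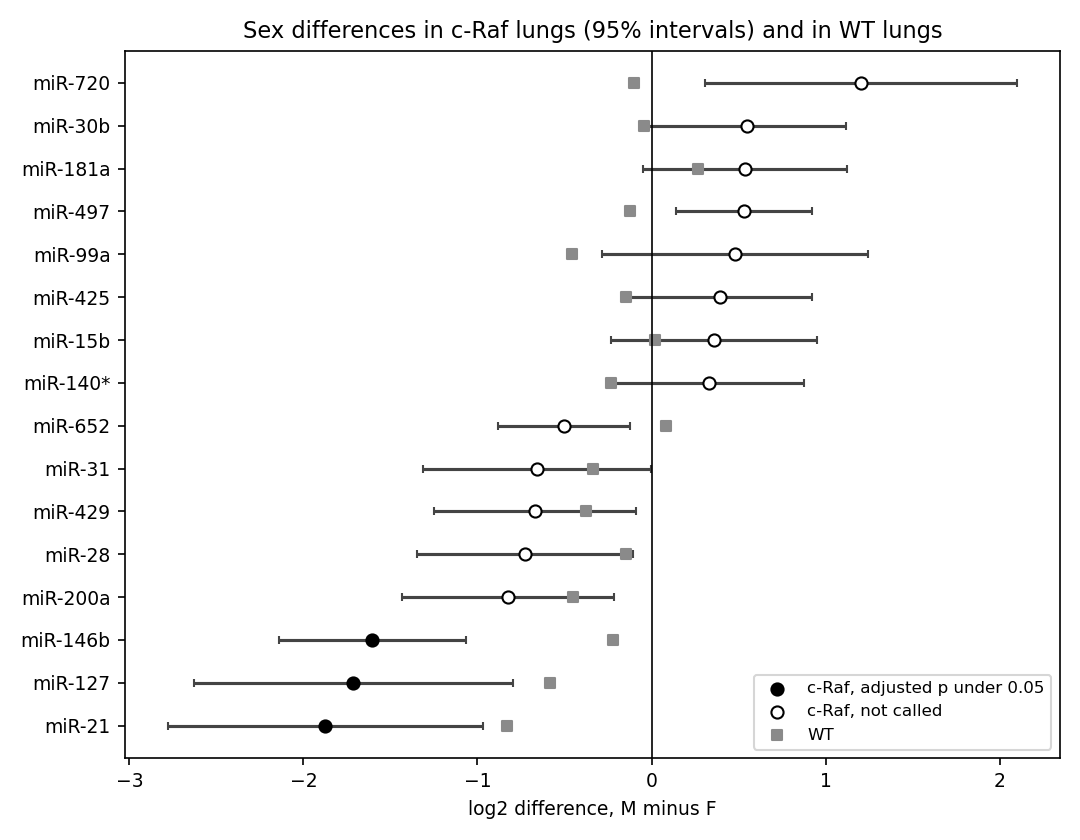
Difference M minus F in log2 scaled intensity (horizontal axis) for the 8 miRNAs with the smallest p in each direction. Circles with bars are the c-Raf difference with its 95% interval, filled where the adjusted p was under 0.05, and grey squares are the WT difference. The intervals of miR-146b, miR-127 and miR-21 end at -1.07, -0.80 and -0.97.

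miR-146b, which restrains NF-kappaB signalling, was at -6.64, -6.03 and -5.80 in M c-Raf (lowest, median and highest array) and at -5.33, -4.58 and -3.70 in F c-Raf. All M c-Raf arrays lay below all F c-Raf arrays. The difference was -1.60 (SE 0.26, 95% interval -2.14 to -1.07, limma adjusted p = 0.000377). It was detected on 3 M c-Raf and 5 F c-Raf arrays. The lowest spot signal well above background lay at -5.58 on F c-Raf replicate 4 and from -4.68 to -2.94 on the others. In M c-Raf it lay at -7.08 on replicate 4 and from -5.97 to -1.54 on the others. miR-146b was above that limit on replicate 4 of each group alone, so that its difference rests on values near background. M c-Raf replicates 3, 4 and 5, the arrays that detected miR-146b, were the brightest of that group, and it was at -6.05 to -5.80 there. The dimmer M c-Raf replicates 1, 2 and 6 were at -6.64, -6.41 and -5.85. Each value is divided by the brightness of its array, and a part of brightness in the difference was not tested beyond the covariate given below. On the 6 slides the difference was -1.32, -2.70, -1.44, -1.02, -1.86 and -1.30, and within scans 1 to 4 it was -1.02, -1.58, -1.32 and -2.07. Its near-identical partner miR-146a, also an NF-kappaB target, ran from -6.64 to -5.21 in M c-Raf and from -6.01 to -4.58 in F c-Raf, so that these arrays overlapped. The difference of miR-146a was -0.27 (SE 0.32, adjusted p = 0.952).

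miR-21, the carcinoma-associated repressor of Pdcd4, was detected on all 12 arrays. On M c-Raf replicates 2 and 6 it lay below the lowest spot signal well above background (-3.47 against -3.36 and -2.74 against -1.54). On all other c-Raf arrays it lay above that limit. It was at -3.72, -3.29 and -2.65 in M c-Raf (lowest, median and highest) and at -1.95, -1.55 and 0.01 in F c-Raf. The sexes did not overlap, and F c-Raf replicate 2 was the highest array. The difference was -1.88 (SE 0.44, 95% interval -2.78 to -0.97, limma adjusted p = 0.0177), or 3.67-fold higher in F c-Raf. By slide it ranged from -3.48 (slide 2) to -0.70 (slide 3), and it was -2.05, -1.92, -1.18 and -2.09 within scans 1 to 4. Without F c-Raf replicate 2 it was -1.60 and no longer called (adjusted p = 0.0674).

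miR-127, which is expressed from the maternal chromosome and lies antisense to Rtl1, was at -6.64, -6.35 and -5.45 in M c-Raf and at -4.98, -4.34 and -3.93 in F c-Raf. Again no array of the sexes overlapped. The difference was -1.71 (SE 0.44, 95% interval -2.63 to -0.80, limma adjusted p = 0.0322), and -0.54, -1.94, -1.82 and -2.02 within scans 1 to 4. It was detected on 2 M c-Raf and 6 F c-Raf arrays. Those M c-Raf arrays, replicates 4 and 5, were the brightest of the group and gave its highest values, -5.52 and -5.45. The dimmer replicates 1, 2, 3 and 6 were at -6.64, -6.50, -6.20 and -6.575. miR-127 exceeded the lowest spot signal well above background on these 2 arrays and on F c-Raf replicates 4 and 6 alone. The 6 F c-Raf arrays alone met the filter on detection, so miR-127 could enter the test through the group where it was higher. With no filter on dim miRNAs it was not called (limma adjusted p = 0.219), while miR-146b was (0.00244). With the filter, the call of miR-127 was lost without any 1 of 8 c-Raf arrays. These were M c-Raf replicates 1, 2, 3 or 6 and F c-Raf replicates 2, 3, 5 or 6, with an adjusted p of at most 0.0977. Of the 78 miRNAs on the array with a precursor between Dlk1 and Dio3, 8 were detected on a c-Raf array, and miR-127 alone passed the filter, so that nothing can be said of the region. Its miR-337-5p was detected on 1 M c-Raf and 3 F c-Raf arrays.

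**Figure D3:**
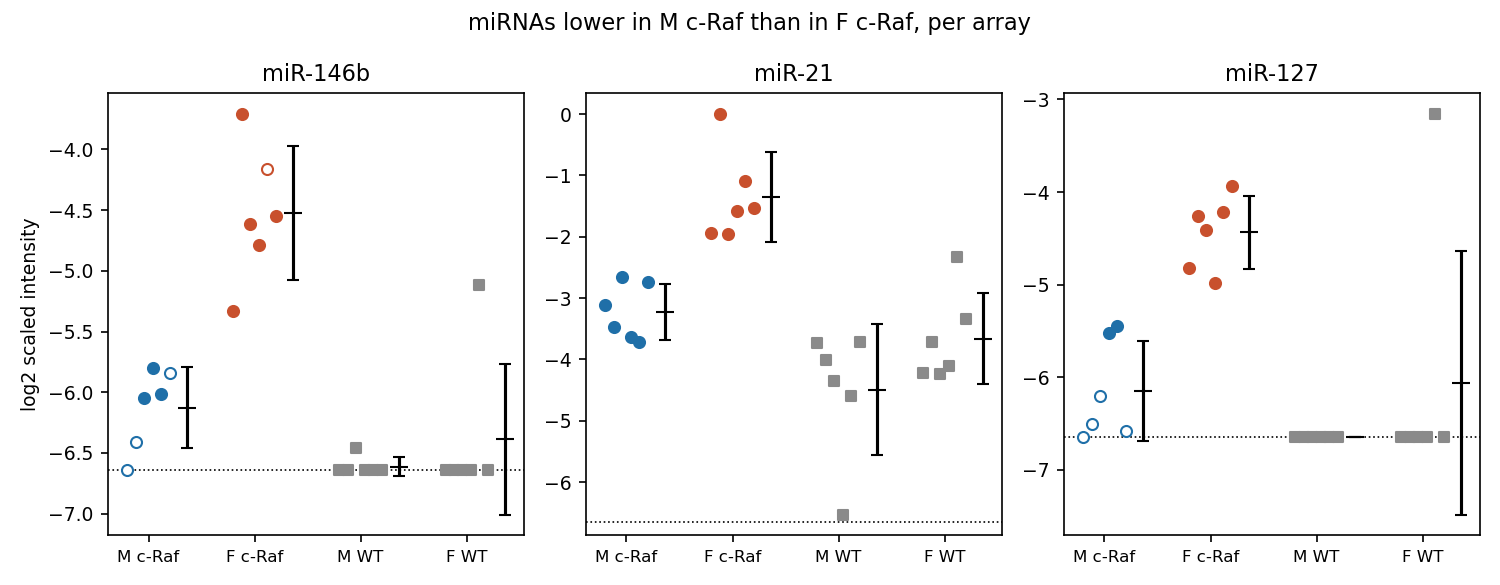
Log2 scaled intensity (vertical axis) of miR-146b, miR-21 and miR-127 on each array, by group. In c-Raf, filled circles are arrays that detected the miRNA and open circles arrays that did not, grey squares are WT arrays, black bars are the mean ± SD of 6 arrays, and the dotted line is the floor. The 6 M c-Raf arrays lie below the 6 F c-Raf arrays in each panel.

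With the slide as a replicate block the 3 calls had a limma adjusted p of 0.000466 (miR-146b), 0.0172 (miR-21) and 0.0205 (miR-127). With log2 brightness as a covariate, which was chosen after seeing the data, the differences were -1.63 for miR-146b, -1.87 for miR-21 and -1.85 for miR-127 (limma adjusted p = 0.000657, 0.0209 and 0.0209). Without the 2 dimmest arrays, M c-Raf replicate 6 and F c-Raf replicate 5, also chosen after seeing the data, they were -1.59, -1.92 and -1.58, and only miR-146b remained called (adjusted p = 0.00264, 0.0557 and 0.149). The calls depended on the scaling, the floor and the background correction. With the 75th percentile over all spots the differences were -1.65, -1.77 and -1.67 and none was called (adjusted p = 0.998). With a floor of 0.1 miR-146b and miR-127 lay at the floor on nearly all arrays and differed by -0.01 and 0, while miR-21 was at -1.55 and called (adjusted p = 0.000722). With normexp, a model-based background correction with an added offset, the differences were -1.23, -1.39 and -1.18 (adjusted p = 0.107 for each) and the median over all miRNAs was -0.97. The 3 lay at -0.26, -0.42 and -0.21 from that median, but normexp did not move all miRNAs alike, since miR-24 was at -0.05 and let-7a at 0.075. With no scaling between arrays the 3 differences were -0.74, -1.18 and -0.62, the median of all miRNAs moved to 0.68, and relative to it the 3 were at -1.42, -1.86 and -1.31, with 0 calls.

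Whether the sex difference belonged to the transgenic lungs was asked by comparing it with M WT against F WT, which shares no array with it. In WT 0 miRNAs were called by limma (0% of 120) and 11 (9.17%) had an unadjusted p under 0.05. miR-146b was at the floor on 5 M WT and 5 F WT arrays and differed by -0.22 (SE 0.26), miR-127 was at the floor on 6 and 5 and differed by -0.58 (SE 0.44), and miR-21 differed by -0.83 (SE 0.44). The WT difference of miR-21 rests in part on M WT replicate 4, the dimmest wild type array, at -6.54. The c-Raf difference minus the WT difference was -1.38 for miR-146b (SE 0.37, limma adjusted p = 0.126), -1.13 for miR-127 (SE 0.62, adjusted p = 0.872) and -1.04 for miR-21 (SE 0.62, adjusted p = 0.872). Of 120 miRNAs 0 were called for this difference (0%), with 5 (4.17%) at an unadjusted p under 0.05. With array weights, which give less weight to arrays that vary more, 3 were called on all 24 arrays, miR-146b, miR-652 and miR-21. Leaving out F c-Raf replicate 1 gave a call of miR-146b (-1.54, adjusted p = 0.0284). Without F WT replicate 5 miR-127 (-1.71) and miR-146b (-1.64) were called (adjusted p = 0.000678 for both). The WT arrays then left were all at the floor for miR-127 and all but 1 for miR-146b, so that the floor leaves nearly no WT difference or spread and these values nearly repeat the c-Raf differences. As a description across miRNAs, which do not vary independently of each other, the 120 c-Raf and WT differences correlated weakly (Pearson r 0.22, Spearman rho 0.23), and the sign matched for 71.

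**Figure D4:**
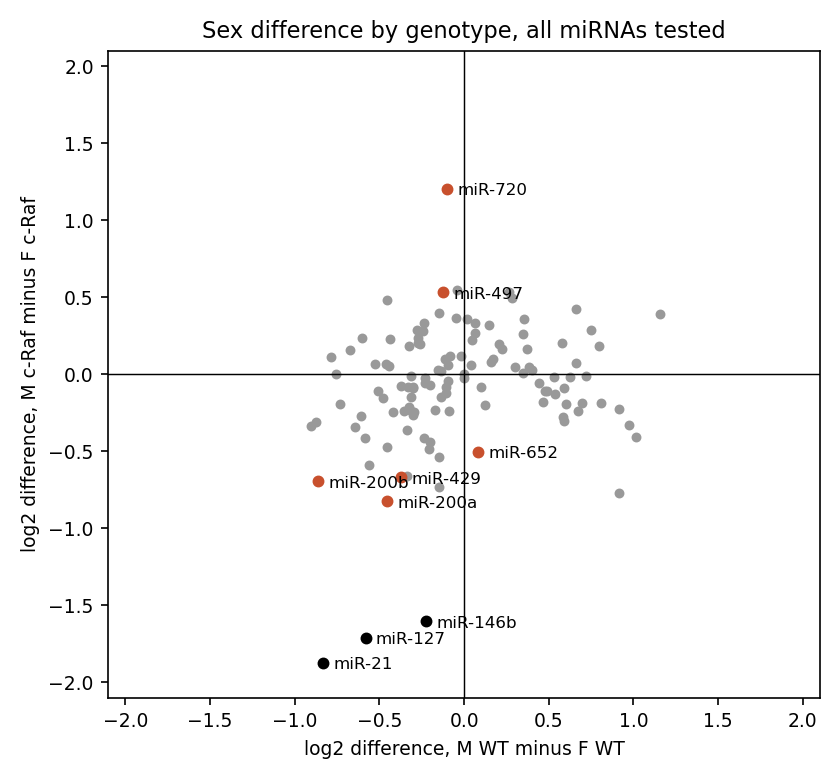
Difference M c-Raf minus F c-Raf (vertical axis) against M WT minus F WT (horizontal axis) in log2 scaled intensity, 1 point for each of the 120 miRNAs tested. Black points are called in c-Raf, orange points are other named miRNAs. miR-21, miR-127 and miR-146b lie at -1.88 to -1.60 on the c-Raf axis and at -0.83 to -0.22 on the WT axis.

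The miR-200 family, repressors of Zeb1 and Zeb2 in epithelium, had lower means in M c-Raf for 4 of 4 tested members, at a median of -0.68 against -0.05 over all miRNAs tested; with no scaling between arrays the 4 lay above 0, at a median of 0.12 or -0.56 relative to the shift of all miRNAs, and with normexp their median was 0.03 above that of all miRNAs. None of the 4 was called, and 2 had an unadjusted p under 0.05, against 8.33% of all miRNAs. miR-200a was at -6.64, -5.62 and -5.14 in M c-Raf and at -5.09, -4.91 and -4.72 in F c-Raf, without overlap. Its difference was -0.82 (SE 0.29, limma adjusted p = 0.206). miR-429 was at -4.72, -4.32 and -4.15 in M c-Raf and at -4.06, -3.81 and -2.87 in F c-Raf, again without overlap, and differed by -0.67 (SE 0.28, adjusted p = 0.344). Both were detected on 4 M c-Raf and 5 F c-Raf arrays and were lower in M c-Raf on 6 of 6 slides. miR-200b and miR-200c, detected on all 12 arrays, overlapped between the sexes and differed by -0.69 (SE 0.37) and -0.54 (SE 0.27), each with an adjusted p of 0.617. On the 6 slides the median of the family was -0.36, -0.93, -0.63, -0.49, -1.18 and -0.34. miR-141 and miR-205, a miRNA of basal epithelium, were detected on M c-Raf replicate 4 alone, the brightest array, and were not tested. In WT the family also lay below 0 for 4 of 4, at a median of -0.41. The dimmest wild type array, M WT replicate 4, was far below the other WT arrays for miR-200b and miR-429 (-5.62 and -6.64), but not for miR-200a and miR-200c. Per array the family was not lower on every M c-Raf array, since M c-Raf replicate 6 had the highest miR-200c of all 12 (0.67) and was the dimmest array.

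**Figure D5:**
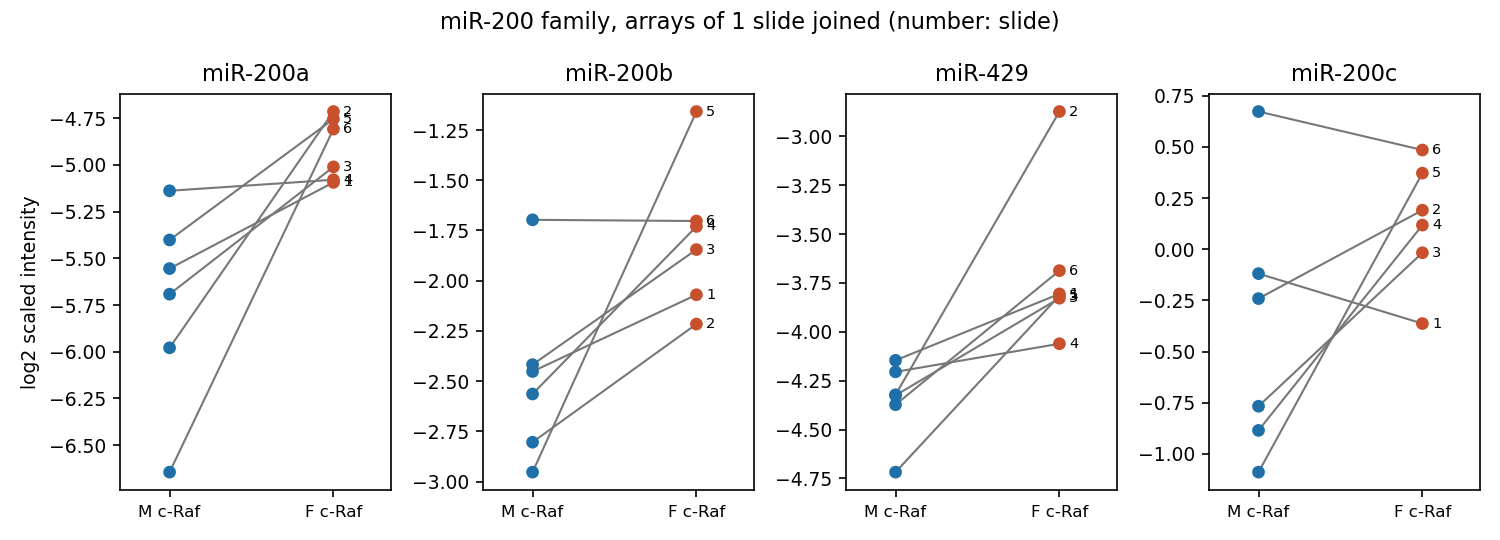
Log2 scaled intensity (vertical axis) of the 4 tested miR-200 family members, with the M c-Raf and F c-Raf arrays of each slide joined by a line and the slide number at the right. miR-200a and miR-429 rise from M to F on 6 of 6 slides, miR-200b on 5 and miR-200c on 4.

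Among the miRNAs with higher means in M c-Raf, miR-497 had the smallest p. It belongs to the miR-15/16 seed group, whose members repress cyclins and Bcl2. It was at -2.33, -1.94 and -1.65 in M c-Raf and at -2.99, -2.46 and -2.20 in F c-Raf, so that single arrays overlapped although M c-Raf was higher on 6 of 6 slides. The difference was 0.53 (SE 0.19, limma adjusted p = 0.206). With the slide as a replicate block it was called (SE 0.13, adjusted p = 0.0276), and likewise with the scan as a block; the block left the 3 other calls in place, for 4 calls in all. None of its 5 tested relatives of the same seed was called. miR-15b was at 0.36 (SE 0.28), and miR-15a, miR-16, miR-195 and miR-322 were at -0.25, -0.41, -0.34 and -0.47, all with an adjusted p of 0.952 or above and a median of -0.30 over the 6. miR-195 lies beside miR-497 on chromosome 11.

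miR-720, which later annotation places among fragments of transfer RNA, was at -5.23, -4.72 and -4.42 in M c-Raf and at -6.64, -6.23 and -4.98 in F c-Raf. It was detected on 5 M c-Raf and 3 F c-Raf arrays, the sexes overlapped in 1 or more arrays, and it differed by 1.20 (SE 0.43, limma adjusted p = 0.206), the largest difference above 0 of all 120. The other 6 with the smallest p in this direction were miR-30b (0.55), miR-181a (0.53), a miRNA of lymphocyte development, miR-99a (0.48), miR-425 (0.40), miR-15b and the passenger strand miR-140* (0.33), with adjusted p from 0.617 to 0.952. miR-30b and miR-425 were near the floor, with 2 and 4 F c-Raf arrays at it.

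Of the other miRNAs with lower means in M c-Raf, miR-652, encoded on the X chromosome, was detected on all 12 arrays at -2.03, -1.47 and -0.88 in M c-Raf and -1.23, -0.93 and -0.73 in F c-Raf. It was lower on 6 of 6 slides by 0.15 to 1.08, and its difference of -0.50 (SE 0.18) had a limma adjusted p of 0.206. miR-28 differed by -0.73 (SE 0.30, adjusted p = 0.344) and miR-31, a miRNA raised in several lung tumours, by -0.66 (SE 0.31, adjusted p = 0.581). miR-28 was detected on 4 M c-Raf and 4 F c-Raf arrays, miR-31 on 4 and 5. Both overlapped between the sexes, and miR-31 was lower on 4 of 6 slides.

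Since males carry 1 X chromosome, the miRNAs with a precursor on it were taken as a group. Of 87 on the array 20 were detected on a c-Raf array and 10 were tested; 5 lay above and 5 below 0, at a median of -0.03 against -0.05 for all miRNAs, and 0 were called. Besides miR-652, miR-223 (0.32), miR-221 (0.23), miR-322 (-0.47) and miR-92a (0.08), which has a further precursor elsewhere, show the range.

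let-7b, of the let-7 family that represses Ras, Myc and Hmga2, was at 2.99 ± 0.14 in M c-Raf against 2.79 ± 0.36 in F c-Raf (SD, n = 6). Of the 9 let-7 members tested 2 lay above and 7 below 0, at a median of -0.08, between miR-98 at -0.44 and let-7b at 0.20, and 0 were called; with the percentile over all spots 6 of the 9 lay above 0. let-7c was at 0.10 (95% interval -0.31 to 0.51), let-7a at -0.07 and let-7d at -0.09. In the miR-17-92 and paralogous clusters, which Myc induces, 5 of 12 were tested at a median of 0.08, from miR-20a (-0.36) to miR-93 (0.29), with miR-92a at 0.08 and miR-25 at 0.16. The miR-30 family had 4 tested at a median of -0.09, with miR-30a at -0.23 and miR-30d at 0.01. The miR-23/27/24 clusters had 5 at 0.02, with miR-24 at 0.02 and miR-23a at -0.08, and the miR-99/100 and miR-125 families 5 at 0.20, with miR-125b-5p at 0.28 and miR-125a-5p at -0.02. In the miR-29 family, which restrains collagens, only miR-29a was tested (0.23). Of 4 tested members of the miR-34 and miR-449 families, which p53 and ciliated cells express, miR-34c was at -0.59 and miR-34a at -0.24, at a median of -0.20. None of these was called. The 12 tested passenger strands had a median of -0.12 with 0 calls, miR-30a* at -0.49 and miR-877* at -0.41.

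Groups linked to signalling held the called miRNAs beside others that were not called. Of 6 tested miRNAs linked to Raf and ERK, miR-21 was called lower, against 2.5% called of all miRNAs tested, and miR-31 (-0.66), miR-20a (-0.36), miR-92a (0.08), miR-221 (0.23) and miR-155 (0.37) were not called. Of 5 linked to NF-kappaB and inflammation, miR-146b and miR-21 were called lower, against the same 2.5%, and miR-146a (-0.27), miR-223 (0.32) and miR-155 (0.37), the last 2 from myeloid and lymphoid cells, were not. The study tabulates 13 miRNAs, some of them chosen as regulated in these samples. It took miR-146a for its likeness to miR-146b, and miR-15a and miR-34a as not significantly changed on its arrays. Of the 13, 8 were tested. Of these 3 were called and 8 of 8 lay below 0 at a median of -0.37, against 2.5% called and 56.7% below 0 of all miRNAs. In WT the same 8 also lay below 0, at a median of -0.38, with M WT replicate 4 the lowest WT array for miR-21 and miR-34a. Besides the called ones they were miR-322, miR-146a, miR-183 (-0.27), miR-15a and miR-34a. With no scaling between arrays their median was 0.42, or -0.26 relative to the median of all miRNAs.

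Markers of other cell types were read because the samples could include such cells. The 4 tested leukocyte miRNAs were at a median of 0.27 (miR-223, miR-150, miR-155 and miR-146a, of which miR-150 alone is not in the NF-kappaB group), and their mean level per array ran from -5.80 to -4.95 in M c-Raf and from -5.95 to -5.25 in F c-Raf, while miR-142-3p and miR-142-5p, markers of all blood cells, were detected on no c-Raf array. The erythroid miR-486 and miR-451 were at 0.18 and 0.07, and the mesenchymal miR-214 and miR-199a-3p at 0.05 and -0.06. The endothelial miR-126-3p was at -0.11, and miR-133a and miR-133b of heart and skeletal muscle at 0.49 and 0.17. The slide median of the muscle pair ran from -1.86 to 1.95. miR-375 of neuroendocrine and islet cells was at -0.34. The smooth muscle miR-143 and miR-145 were each detected on 2 M c-Raf arrays but on no F c-Raf array. The neural miR-128 and hepatic miR-122 were detected on M c-Raf replicate 4 alone, the brightest array. Of all mouse miRNAs, 48 were detected in M c-Raf alone and 2 in F c-Raf alone. None of the tested markers was called, and their part in the 3 calls was not tested. On these arrays, fewer cells of a type and less of a miRNA per cell cannot be told apart.

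Detection was compared between the sexes independently of scaling and floor. On at least 1 array 187 miRNAs were detected in M c-Raf against 141 in F c-Raf, with 139 in both. Of the 48 detected in M c-Raf alone, 28 were detected on replicate 4 only, the brightest array, and without it 20 were left. Those on 3 M c-Raf arrays were miR-210, which hypoxia induces, miR-29c*, miR-542-5p and miR-676. In F c-Raf alone were miR-485* and miR-712, each on 1 array. Of the 51 miRNAs detected on all 6 F c-Raf arrays, 18 were missed on a M c-Raf array, and 16 of these only on replicate 6, the dimmest. Fisher's exact test, two-sided, was run for the 156 miRNAs detected on 1 to 11 of the 12 arrays. More M c-Raf than F c-Raf arrays detected 93 of these, fewer did 36, and 27 were equal. The test called 0 (0%) after adjustment and 0 (0%) at an unadjusted p under 0.05, with the smallest p, 0.0606, for miR-127, the only miRNA that differed by 4 arrays or more. With 6 arrays against 6 the smallest p this test can give is 0.00216, so that a single miRNA detected on all arrays of 1 sex and none of the other would not pass the adjustment over 156.

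The test that the study's methods describe compares linear values, with a threshold on fold and on brightness. Applied to these 12 arrays, the methods' t-test gave 3 miRNAs at those thresholds with no correction, miR-148a and miR-185 higher and miR-410 lower in M c-Raf. After Benjamini-Hochberg adjustment it called 0 of 544, with 4 at an unadjusted p under 0.05. None of the 3 was among the limma calls. miR-148a and miR-410 were detected on no c-Raf array, and miR-185 on 2 of M c-Raf and none of F c-Raf, so none of the 3 passed the filter on detection.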

How the data were processed

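MiRNAs were measured on 24 1-colour Agilent mouse miRNA arrays, 6 per group, and the 12 c-Raf arrays made the main comparison. The deposited scanner files hold background-subtracted intensity values of single spots, which the authors extracted with Agilent Feature Extraction (version 10.7.3.1 per the file headers; the study's methods name another). The deposited table of processed values holds intensities on a linear scale that the authors scaled to the 75th percentile of each array, and it served as an alternative, with 359 of its 363 miRNAs matched by name.

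From the spot intensities, scaled values were made as described above, each miRNA was given the median of its spots, and limma 3.58.1 (R 4.3.3) was fitted to log2 values of all 24 arrays with 1 mean per group, for the 120 miRNAs detected on at least 6 arrays. Benjamini-Hochberg adjustment ran over these 120, and an adjusted p under 0.05 was a call. Brightness and number detected were tested by exact permutation, two-sided (scipy 1.17.1), and detection by Fisher's exact test. The mean spot signal was not used here, so normexp (offset 50) took the median spot signal and the median background. The methods' t-test is an unequal-variance test, run here on linear values, and its thresholds were an unadjusted p under 0.05, a fold above 3 and a mean signal above the median.

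Alternatives were the scaling, floor, filter, background correction, deposited table, slide or scan as a block, array weights, only c-Raf arrays, and each array left out. Named miRNAs are the calls, the 8 with the smallest p in each direction, the 13 tabulated by the study, the 2 of highest mean level in each list, the 5 of highest mean level, those sharing a seed or precursor with a call, and any whose detection differed by 4 of 6 arrays. The members and lists were chosen with earlier results of these data known. The number of arrays limits the precision. Chromosomes and neighbouring genes come from RefSeq, whose build differs from that of the array design (mm9), so no coordinates are given.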

Additional observations from a re-analysis of the deposited data

Results flagged for a closer look

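In the 48 named miRNAs, array brightness and the number of miRNAs detected, each group of 6 c-Raf arrays was searched for an array far from the others. Of 100 groups, 11 held an array whose gap to its nearest neighbour was above Dixon's critical value as a share of the range. About 5 would be expected for independent values with a normal spread. The groups share the same arrays and some hold values at the floor, so 11 against 5 cannot be read as an excess. In F c-Raf replicate 2, 4 miRNAs stood apart. miR-429 was at -2.87 while the other 5 arrays lay from -4.06 to -3.69, and miR-92a was at -1.60 while the others lay from -1.04 to -0.87. miR-133b was at -6.64, the floor, while the others lay from -5.32 to -4.54, and miR-214 was at -4.07 while the others lay from -3.24 to -3.01. In the other F c-Raf arrays, miR-425 was at -6.38 in replicate 6 (others -6.64 to -6.61, 4 of them at the floor), miR-34a at -1.85 in replicate 4 (others -1.31 to -0.99) and miR-30d at -2.42 in replicate 3 (others -1.39 to -0.95). In M c-Raf replicate 6, the dimmest array, miR-425 was at -4.59 (others -6.64 to -6.28) and miR-24 at -0.84 (others -0.52 to -0.35). In M c-Raf replicate 2, miR-15b was at -0.25 (others 0.05 to 0.21), and in M c-Raf replicate 3, miR-199a-3p was at -2.65 (others -3.32 to -3.09).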

How the results depend on the processing

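The 3 calls of M c-Raf against F c-Raf (limma, adjusted p under 0.05) became 0 with the percentile over all spots (1 at an unadjusted p under 0.05), 0 with no scaling (3), 0 with normexp (30), 0 of 116 with the deposited table (1), and 0 of 544 in the methods' t-test after Benjamini-Hochberg (4). The number was 1 with quantile normalization (miR-146b), 1 with a floor of 0.1 (miR-21), 1 with a floor of 0.001 (miR-21), 1 with no filter on dim miRNAs (miR-146b), 1 without M c-Raf replicates 4 and 6 together (miR-146b) and 1 without the 2 dimmest c-Raf arrays (miR-146b). It was 2 with the percentile over miRNAs detected on all 12 c-Raf arrays (miR-146b and miR-21), 3 with the filter on c-Raf arrays, with only the 12 c-Raf arrays or with brightness as a covariate, and 7 with array weights, which added miR-200b, miR-652, miR-497 and miR-429. With the slide as a replicate block or the scan as a block it was 4, the 3 and miR-497. Left out in turn, single arrays gave 1 (F c-Raf replicate 2) to 6 (M WT replicate 4, with miR-429, miR-200b and miR-497 added). Same-numbered arrays shared a slide, yet their deviations from the group means correlated by -0.08, 0.47, 0.38, 0.06, -0.13 and 0.23 on slides 1 to 6. The c-Raf difference minus the WT difference had 3 calls with array weights (miR-146b, miR-652 and miR-21) and 0 to 2 with single arrays left out, and M WT against F WT had 0 throughout. The brightness difference ran from 0.32 to 1.34 and the difference in detected miRNAs from -0.2 to 28 with single arrays left out. Within slides the exact permutation p over 64 sign flips was 0.344 for brightness and 0.5 for detection. Fisher's test, in which a single miRNA cannot pass the adjustment, gave 0 calls throughout, with 1 miRNA at an unadjusted p under 0.05 without M c-Raf replicate 4 or 5.

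Among the 48 named miRNAs, 97 of 862 differences under these alternatives turned sign, more with no scaling and with normexp than with any other setting. The median over all miRNAs was 0.68 with no scaling, -0.97 with normexp and 0.16 with the deposited table, and with normexp the move was not alike for all miRNAs. The cause was not tested. With the percentile over all spots the sign turned for miR-23a (0.026), miR-125a-5p (0.079), miR-199a-3p (0.045), let-7a (0.037) and let-7d (0.016). With the percentile over miRNAs detected on all 12 c-Raf arrays the sign turned for miR-125a-5p (0.044), miR-199a-3p (0.011) and let-7a (0.0022). With quantile normalization the sign turned for miR-24 (-0.0078), miR-23a (0.032), miR-199a-3p (0.058) and let-7a (0.029). With the deposited table the sign turned for miR-23a (0.10), miR-125a-5p (0.16), miR-199a-3p (0.12), miR-126-3p (0.076), let-7a (0.12) and let-7d (0.094). With no scaling the sign turned for miR-200a (0.31), miR-652 (0.20), miR-28 (0.37), miR-429 (0.088), miR-31 (0.42), miR-322 (0.39), miR-15a (0.45), miR-183 (0.73), miR-146a (0.81), miR-34a (0.46), miR-200c (0.16), miR-200b (0.0022), miR-30a (0.47), miR-23a (0.62), miR-125a-5p (0.67), miR-34c (0.12), miR-199a-3p (0.64), miR-126-3p (0.59), miR-375 (0.40), miR-30a* (0.21), miR-877* (0.19), let-7a (0.63) and let-7d (0.61). With normexp the sign turned for miR-497 (-0.37), miR-720 (-0.90), miR-30b (-1.06), miR-181a (-0.69), miR-425 (-1.14), miR-99a (-0.79), miR-140* (-0.93), miR-92a (-0.22), miR-25 (-0.87), miR-29a (-0.10), miR-30d (-0.28), miR-24 (-0.050), miR-125b-5p (-0.087), miR-223 (-0.93), miR-486 (-0.81), miR-451 (-0.88), miR-214 (-0.75), miR-133b (-0.94), miR-133a (-0.98) and let-7a (0.075). With a floor of 0.1 the sign turned for miR-214 (-0.049) and miR-877* (0.13). With array weights the sign turned for miR-92a (-0.066), miR-30d (-0.17), miR-23a (0.015), miR-486 (-0.037), miR-199a-3p (0.031), miR-214 (-0.066), miR-126-3p (0.10) and miR-133b (-0.054). With brightness as a covariate the sign turned for miR-15a (0.022), miR-24 (-0.037), miR-451 (-0.066) and miR-877* (0.21). Without M c-Raf replicates 4 and 6 together the sign turned for miR-92a (-0.012), miR-30d (-0.15), miR-23a (0.026), miR-451 (-0.0082), miR-133b (-0.47) and miR-133a (-0.24). Without the 2 dimmest c-Raf arrays the sign turned for miR-30d (-0.065), miR-23a (0.051), miR-125a-5p (0.10) and miR-126-3p (0.0046). In the methods' t-test the sign turned for miR-31 (0.10), miR-183 (0.34), miR-146a (0.16), miR-34a (0.23), miR-30a (0.22), miR-23a (0.34), miR-125a-5p (0.50), miR-199a-3p (0.43), miR-126-3p (0.45), miR-375 (0.014), let-7a (0.30) and let-7d (0.40). With single arrays left out the sign turned for miR-30d (-0.20 to 0.15), miR-24 (-0.055 to 0.093), miR-125a-5p (-0.14 to 0.09), let-7a (-0.15 to 0.0051), miR-451 (-0.075 to 0.15), miR-133b (-0.13 to 0.50), miR-23a (-0.15 to 0.0063), miR-126-3p (-0.19 to 0.062), miR-92a (-0.021 to 0.16), miR-199a-3p (-0.15 to 0.019) and miR-214 (-0.11 to 0.11). Signal over background limits the detection of dim miRNAs most on M c-Raf replicate 6, where the lowest signal well above background lay at -1.54, against -7.08 on M c-Raf replicate 4.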

Other observations

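The array also carried 39 miRNAs of viruses, which were not part of the comparison. Of these, 2 were detected on any of the 24 arrays, and mghv-miR-M1-2 was detected on 23, including 6 of 6 M c-Raf and 6 of 6 F c-Raf arrays. Its levels were not compared between the sexes.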
